A study of Rattus norvegicus with 12 samples.

Results

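Txnip and the related α-arrestins Arrdc1, Arrdc2, Arrdc3 and Arrdc4 were followed, together with Txn1, the thioredoxin that TXNIP binds, in rat insulinoma cells given a control virus or a virus for ChREBPβ. These 6 genes were chosen by name, and they are 6 of 28727 named entries of a table of read counts per gene. The study asked what an excess of ChREBPβ, the short and constitutively active form of the carbohydrate response element binding protein, does to β-cells at low and high glucose. RNA came from a glucose-responsive clone of the rat insulinoma line INS-1, in 12 libraries that form 4 groups of 3.

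The α-arrestins are adaptors with an arrestin fold, and most of them recruit ubiquitin ligases of the NEDD4 family to proteins of the cell surface, which are then internalised. TXNIP binds and inhibits reduced thioredoxin, ARRDC4 is its closest relative, and both restrain glucose uptake through glucose transporters. The Txnip gene is a classical glucose-induced gene of the β-cell and a well-known target of ChREBP, and an excess of TXNIP is linked to β-cell death.

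After transduction with an adenovirus, the cells spent 48 h at 2 or 11 mM glucose. The 4 groups received GFP at 2 mM glucose, GFP at 11 mM glucose, ChREBPβ at 2 mM glucose or ChREBPβ at 11 mM glucose. The transgene was mouse ChREBPβ carrying an mCherry tag, so the GFP groups controlled for the virus but not for that tag, and the model is 1 transformed cell line with an amount of ChREBPβ set by the virus. Library totals ran from 25754488 to 60531215 counts. In the GFP libraries they were 25754488 to 32938546 at 2 mM and 36219167 to 46654823 at 11 mM. In the ChREBPβ libraries they were 28595982 to 57726412 at 2 mM and 57088794 to 60531215 at 11 mM, so depth differed between the groups. Levels are given as CPM (counts scaled to a common library size) after TMM scaling, which corrects totals for composition. Differences are log2 fold changes from edgeR's quasi-likelihood test, with Benjamini-Hochberg adjustment over all 14669 genes tested, and a gene was called at an adjusted p under 0.05 with a change of at least 1.2-fold. All 6 members passed the filter on low counts. The labels do not say that the 3 libraries of a group came from separate cultures, although the study speaks of independent experiments, so the p-values measure the spread between these libraries. In bulk RNA, a change in the share of living or transduced cells and a change of RNA per cell cannot be told apart.

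The labels were checked first. The count of the rat ChREBP gene, Mlxipl, was not raised by the virus: at 2 mM glucose GFP cells held 256 ± 18.8 CPM and cells labelled as carrying ChREBPβ 204.6 ± 6.63 (SD, n = 3), a fall called at -0.33 (edgeR adjusted p = 2.03e-05). Whether reads of the mouse transgene were counted under the rat gene was not tested, so the ChREBPβ groups rest on their labels, and "ChREBPβ" below stands for the libraries so labelled. Of 15 tested genes of a list of ChREBP targets, 12 were called higher with ChREBPβ at each glucose concentration, where 21.0% (2 mM) and 14.3% (11 mM) of all tested genes were called higher. The cells carried β-cell markers, with Ins1 at 11679 CPM in GFP cells at 2 mM glucose. Of the markers of other cells, Prss1, Dcn, Lum and Ptprc had 0 counts in all 12 libraries, while exocrine Ctrb1 was at 4.79 CPM, endothelial Kdr at 1.16 and the macrophage gene Cd68 at 0.361 in the same GFP cells. Gcg, a marker of other islet cells, was at 1624 CPM in these GFP cells.

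Txnip stood lowest in the GFP libraries at 2 mM glucose, at 26.8, 24.3 and 27.7 CPM. At 11 mM glucose the GFP libraries held 335, 347 and 370.4 CPM. With ChREBPβ the values were 450.0, 472 and 448 CPM at 2 mM glucose and 662, 659 and 677 CPM at 11 mM. The 4 groups were therefore ordered from GFP at 2 mM through GFP at 11 mM and ChREBPβ at 2 mM to ChREBPβ at 11 mM, and no library of one group overlapped a library of another. Among all 14669 tested genes, groups did not overlap for 63.3% with ChREBPβ at 2 mM and 56.1% at 11 mM. With glucose the share was 42% in GFP cells and 28.9% in ChREBPβ cells. It was 65.8% for ChREBPβ at 11 mM against GFP at 2 mM, and 53% for ChREBPβ at 2 mM against GFP at 11 mM.

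**Figure D1:**
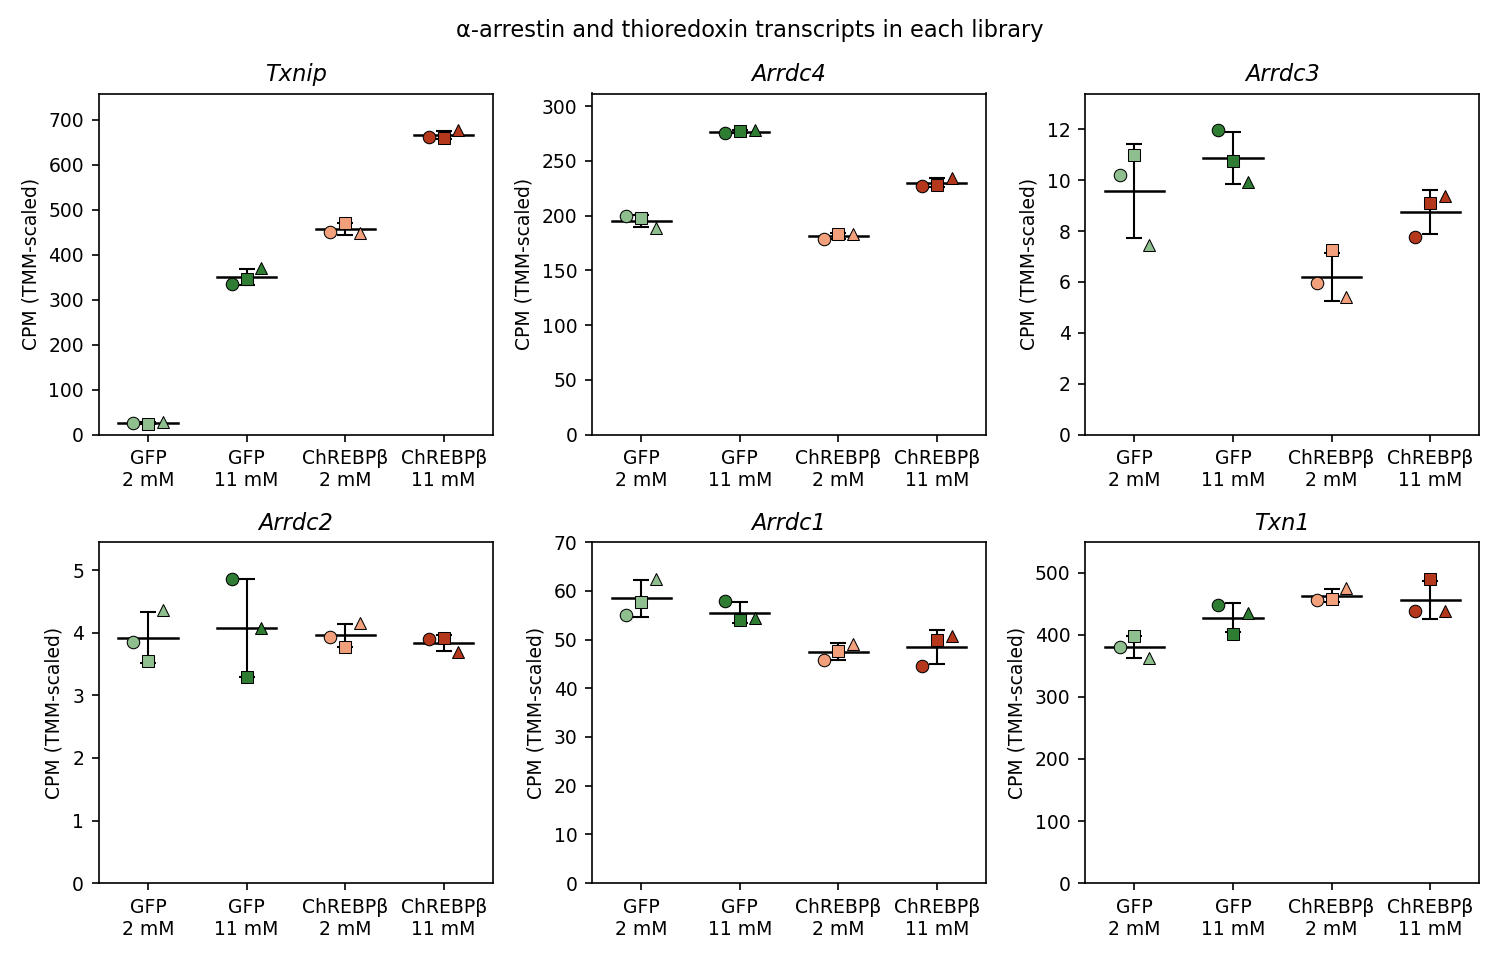
TMM-scaled CPM of each gene (vertical axes, from 0, a separate scale for each gene) in the 12 libraries of the 4 groups; symbols mark replicates a (circle), b (square) and c (triangle), horizontal bars the mean and error bars the SD of 3 libraries. Txnip forms 4 separate groups, from 26.8, 24.3 and 27.7 CPM to 662, 659 and 677 CPM, while Arrdc4 is highest in the GFP libraries at 11 mM glucose.

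At 2 mM glucose, ChREBPβ raised Txnip 17.4-fold, by 4.12 on the log2 scale (95% interval 4.01 to 4.24, edgeR adjusted p = 2.12e-21). At 11 mM glucose the rise was 1.90-fold, or 0.93 (95% interval 0.83 to 1.02, edgeR adjusted p = 1.54e-12). Among all 14669 tested genes, ranked from the largest increase, Txnip took position 71 in the low-glucose comparison and position 701 in the high-glucose one. These 2 comparisons share no library, and the difference between them was tested directly.

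The interaction, which is the log2 effect of ChREBPβ at 11 mM glucose minus its effect at 2 mM, was -3.20 for Txnip (95% interval -3.34 to -3.05, edgeR adjusted p = 7.35e-17). It was the 20th most negative of the 14669 tested genes and the only interaction called among the 6 members, where 6.31% of all tested genes were called. The same pattern looks different on the additive scale. The mean excess of ChREBPβ over GFP libraries was 430.5 CPM at 2 mM glucose (standard error 7.58) and 316 CPM at 11 mM (standard error 11.9), a difference of -115 CPM (standard error 14.1). In CPM the increment at high glucose was thus of a similar order to that at low glucose, whereas in folds the effects lay far apart, and the GFP baseline itself moved between the glucose concentrations.

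Glucose alone raised Txnip in the GFP cells to position 12 of 14669 from the largest increase, at 3.74 on the log2 scale (95% interval 3.63 to 3.85, edgeR adjusted p = 3.26e-20). In ChREBPβ cells 11 mM glucose still raised it 1.46-fold, by 0.54 (95% interval 0.45 to 0.64, edgeR adjusted p = 3.67e-07), which was position 296. In CPM the step with glucose was 324 in GFP cells (standard error 10.5) and 209.5 in ChREBPβ cells (standard error 9.40). ChREBPβ at 2 mM glucose carried 1.30-fold more Txnip than GFP cells at 11 mM glucose (log2 0.38, 95% interval 0.29 to 0.48, edgeR adjusted p = 1.05e-06). With both virus and glucose, Txnip was 25.4-fold above GFP at 2 mM glucose, at position 58 (log2 4.67, 95% interval 4.55 to 4.78, edgeR adjusted p = 2.77e-22).

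Arrdc4, which encodes the closest relative of TXNIP, also rose with glucose but not with ChREBPβ. In GFP cells it was at 199, 198 and 189 CPM at 2 mM glucose and at 275, 277 and 278 CPM at 11 mM. With ChREBPβ it was at 179, 183 and 183 CPM at 2 mM and at 227, 228 and 235 CPM at 11 mM. The 4 groups did not overlap, and their order ran from ChREBPβ at 2 mM through GFP at 2 mM and ChREBPβ at 11 mM to GFP at 11 mM, unlike that of Txnip. In single comparisons between groups, 28.9% to 65.8% of all tested genes had no overlap.

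High glucose raised Arrdc4 1.42-fold in GFP cells (log2 0.50, 95% interval 0.43 to 0.58, edgeR adjusted p = 5.07e-09) and 1.27-fold in ChREBPβ cells (log2 0.34, 95% interval 0.26 to 0.42, edgeR adjusted p = 7.08e-06). These were positions 930 and 708 of 14669 from the largest increase. ChREBPβ changed Arrdc4 by -0.10 at 2 mM glucose (95% interval -0.18 to -0.03, edgeR adjusted p = 0.0209), which is under the 1.2-fold minimum. At 11 mM it was lower by -0.27 (95% interval -0.34 to -0.19, edgeR adjusted p = 4.87e-06), a change that passed the 1.2-fold minimum by little. The interaction was -0.16 and was not called (95% interval -0.27 to -0.05, edgeR adjusted p = 0.0603). The call at 11 mM rests on that minimum: with DESeq2 the value was -0.25 and not called, and leaving out ChREBPβ 2 mM replicate a, or ChREBPβ 11 mM replicate a or b, gave -0.26 in each case, also not called. Set against GFP at 11 mM glucose, ChREBPβ cells at 2 mM held 1.52-fold less Arrdc4 (log2 -0.61, edgeR adjusted p = 4.64e-11).

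The set of RefSeq promoter sequences used here covered 5 of the 6 members and held no entry for Txnip. Each sequence was a window of 250 bases before to 50 after the start of the gene. The windows come from the GRCr8 assembly, which is not the build used for the counts. They were searched on both strands for the E-box CACGTG, for the CCAAT box, and for CANNTGNNNNNCANNTG, a pair of E-boxes in the spacing of a carbohydrate response element. The E-box CACGTG occurs in 6.42% of all 33469 windows of this length, CCAAT in 37.5% and the spaced pair in 0.777%. The windows of Arrdc4 (chr1:131793376-131793675, minus strand) and Arrdc3 (chr2:12872952-12873251, plus strand) are shown because these 2 members rose with glucose in ChREBPβ cells. Capitals mark matches, and ATTGG is CCAAT on the other strand.
Arrdc4: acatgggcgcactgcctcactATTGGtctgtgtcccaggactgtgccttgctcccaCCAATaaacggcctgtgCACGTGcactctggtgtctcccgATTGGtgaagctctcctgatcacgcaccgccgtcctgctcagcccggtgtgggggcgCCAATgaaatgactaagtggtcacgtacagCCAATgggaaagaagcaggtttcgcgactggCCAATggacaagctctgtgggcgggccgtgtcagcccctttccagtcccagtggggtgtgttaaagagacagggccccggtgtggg
Arrdc3: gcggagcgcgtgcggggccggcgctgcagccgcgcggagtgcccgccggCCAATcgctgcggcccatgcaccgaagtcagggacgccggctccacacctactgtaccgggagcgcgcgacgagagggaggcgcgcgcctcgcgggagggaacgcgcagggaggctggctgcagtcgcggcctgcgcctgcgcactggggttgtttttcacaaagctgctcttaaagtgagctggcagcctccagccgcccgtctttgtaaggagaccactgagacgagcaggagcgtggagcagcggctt
The Arrdc4 window holds 1 CACGTG, starting 177 bases before the start of the gene, and 6 CCAAT boxes, a number reached by 14 of the 33469 windows (0.0418%). The Arrdc3 window holds 1 CCAAT box and no CACGTG. Of the other members, Arrdc2 has 2 CCAAT boxes, and the windows of Arrdc1 and Txn1 have no match. The spaced pair of E-boxes is in none of the 5 windows. The search required CA and TG in each E-box of the pair, so a response element with other letters there would have been missed. Whether these windows hold a carbohydrate response element was therefore not tested.

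Arrdc3, an adaptor known for the ubiquitination of integrin β4, was the α-arrestin with the largest relative decrease with ChREBPβ. At 2 mM glucose it was at 10.2, 11.0 and 7.47 CPM in GFP libraries and at 5.94, 7.24 and 5.43 CPM with ChREBPβ. At 11 mM it was at 11.97, 10.7 and 9.92 CPM with GFP and at 7.76, 9.11 and 9.38 CPM with ChREBPβ. At either glucose concentration all 3 ChREBPβ libraries lay below all 3 GFP libraries, at 2 mM by a margin that GFP replicate c nearly closed. Of all tested genes, 63.3% at 2 mM and 56.1% at 11 mM had no overlap in these comparisons, in either direction.

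The decrease was 1.54-fold at 2 mM glucose (log2 -0.62, 95% interval -0.91 to -0.33, edgeR adjusted p = 7.04e-04) and 1.24-fold at 11 mM (log2 -0.31, 95% interval -0.58 to -0.05, edgeR adjusted p = 0.0437). Within ChREBPβ cells, glucose raised Arrdc3 by 0.49 (95% interval 0.21 to 0.76, edgeR adjusted p = 0.0271), while in GFP cells the value was 0.19 and not called (95% interval -0.09 to 0.46, edgeR adjusted p = 0.303). The difference between these glucose responses was 0.30 and was not called (95% interval -0.09 to 0.69, edgeR adjusted p = 0.381). Compared with GFP at 11 mM, ChREBPβ cells at 2 mM had 1.75-fold less Arrdc3 (log2 -0.80, edgeR adjusted p = 5.55e-05), at position 640 from the largest decrease.

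Among the calls for Arrdc3, those at -0.31 and 0.49 depended on single libraries. The first was lost without GFP 11 mM replicate a or b, ChREBPβ 2 mM replicate a, or ChREBPβ 11 mM replicate a or b, with values from -0.34 to -0.23 and edgeR adjusted p from 0.0562 to 0.177, and also with DESeq2 (-0.29, adjusted p = 0.0529). The glucose rise was lost without ChREBPβ 2 mM replicate a or c or ChREBPβ 11 mM replicate b or c, with values from 0.39 to 0.47 and edgeR adjusted p from 0.0951 to 0.183.

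Arrdc1, an α-arrestin that also takes part in the budding of vesicles from the plasma membrane, was lower with ChREBPβ. It measured 55.1, 57.6 and 62.5 CPM in GFP cells and 45.7, 47.7 and 49.1 CPM in ChREBPβ cells at 2 mM glucose. At 11 mM glucose it measured 58.0, 54.0 and 54.4 CPM with GFP and 44.5, 50.0 and 50.8 CPM with ChREBPβ. The GFP libraries lay above the ChREBPβ libraries at both concentrations, and glucose did not separate the groups within a virus. The shares of all tested genes without overlap were 63.3% (2 mM) and 56.1% (11 mM) for ChREBPβ against GFP. For glucose they were 42% in GFP cells and 28.9% in ChREBPβ cells.

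At 2 mM glucose the fall in Arrdc1 was 1.23-fold (log2 -0.30, 95% interval -0.42 to -0.17, edgeR adjusted p = 2.42e-04). Without GFP 2 mM replicate c it was -0.24, under the 1.2-fold minimum. At 11 mM the value was -0.20, also under that minimum (95% interval -0.32 to -0.08, edgeR adjusted p = 0.00811), and the interaction was 0.10 and not called (edgeR adjusted p = 0.548). Glucose changed Arrdc1 by -0.07 in GFP cells (95% interval -0.20 to 0.05) and by 0.03 in ChREBPβ cells (95% interval -0.10 to 0.15), neither of them called.

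Arrdc2, another α-arrestin, moved little. Its 12 libraries ranged from 3.29 to 4.87 CPM, both of these in GFP cells at 11 mM glucose, and the groups overlapped in each of the 6 comparisons between groups. No comparison of Arrdc2 was called, and its fold changes lay between -0.11 and 0.06 on the log2 scale, the interaction included. The 95% interval of the ChREBPβ effect at 2 mM was -0.29 to 0.31, so a change within it would not have been told from none, at 363 to 654 reads per group. The remaining α-arrestin of the rat, Arrdc5, had 0 counts in all 12 libraries and was not tested.

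Txn1 encodes the thioredoxin whose reduced form TXNIP holds inactive. In GFP cells it was at 381, 398 and 362 CPM at 2 mM glucose and at 447, 401 and 435 CPM at 11 mM. In ChREBPβ cells it was at 456, 458 and 475 CPM at 2 mM and at 438, 490.4 and 438 CPM at 11 mM. GFP cells at 2 mM glucose were the lowest group, without overlap with the other 3, and the groups overlapped at 11 mM. Compared with GFP at 2 mM, the share of all tested genes without overlap was 63.3% for ChREBPβ at 2 mM. It was 42% for GFP at 11 mM and 65.8% for ChREBPβ at 11 mM.

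ChREBPβ raised Txn1 1.22-fold at 2 mM glucose (log2 0.28, 95% interval 0.18 to 0.39, edgeR adjusted p = 8.48e-05). This call also stood close to the minimum, and without GFP 2 mM replicate c the value was 0.25, not called. Scaled by library totals alone it was 0.18, not called, but that scaling moved the median of all genes to -0.12. At 11 mM the effect was 0.09 and not called (95% interval -0.02 to 0.20, edgeR adjusted p = 0.147), and the interaction was -0.19, also not called (edgeR adjusted p = 0.117). Glucose changed Txn1 by 0.17 in GFP cells, under the minimum fold (95% interval 0.06 to 0.28, edgeR adjusted p = 0.0145), and by -0.02 in ChREBPβ cells (95% interval -0.13 to 0.08).

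**Figure D2:**
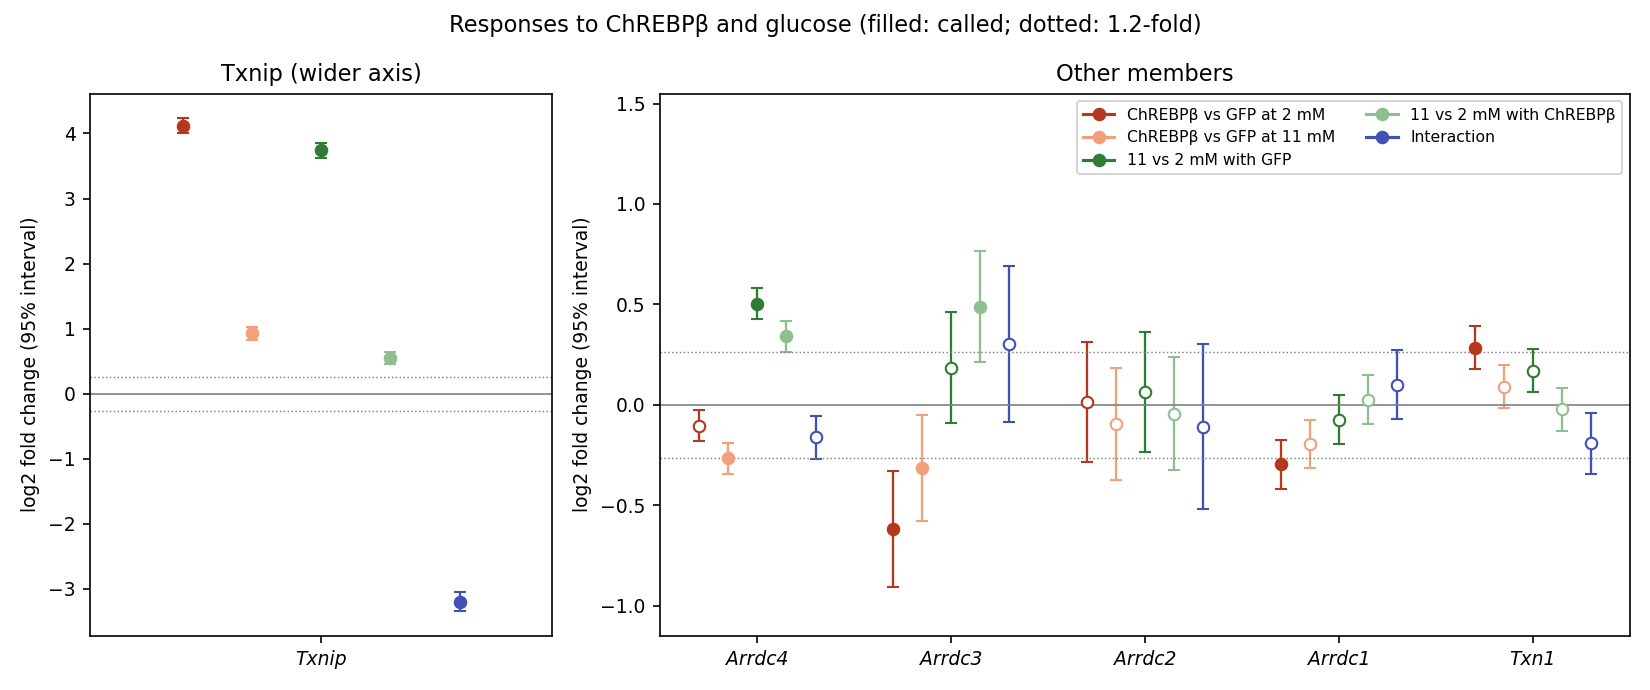
log2 fold changes (vertical axis) with 95% intervals for Txnip (left, wider axis) and the other members (right) in 4 comparisons and the interaction; filled points were called and dotted lines mark the 1.2-fold minimum. Txnip spans 4.12 to -3.20, whereas the values of the other members lie between -0.62 and 0.50.

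Counted together, 2 of the 6 members were called higher (Txnip and Txn1) and 2 lower (Arrdc1 and Arrdc3) with ChREBPβ at 2 mM glucose, where 44.1% of all tested genes were called. At 11 mM, Txnip was called higher and Arrdc3 and Arrdc4 lower, where 33.4% of all genes were called. High glucose in GFP cells raised Txnip and Arrdc4 and lowered none of the 6, with 20.2% of all genes called and 10.2% called higher. In ChREBPβ cells it raised Txnip, Arrdc3 and Arrdc4, which is 3 of 6 members where 3.87% of all tested genes were called, and 145 of those 567 genes were higher. For ChREBPβ at 11 mM against GFP at 2 mM, 1 member was called higher (Txnip) and 1 lower (Arrdc1), beside 50.5% of all genes. The call of Arrdc1 was lost without GFP 2 mM replicate c (-0.22) or ChREBPβ 11 mM replicate a (-0.21). Txn1 was called without GFP 2 mM replicate b (0.29), ChREBPβ 2 mM replicate a (0.27) or ChREBPβ 11 mM replicate a or c (0.29). For ChREBPβ at 2 mM against GFP at 11 mM, 1 was higher (Txnip) and 2 lower (Arrdc3 and Arrdc4), beside 27.0%. These comparisons share groups with each other. Since the members were chosen with results on Txnip known, the counts describe them and test nothing about the family.

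The change of Txnip was also set against members of the same library, which needs no scaling between libraries. Relative to its mean in GFP cells at 2 mM glucose, the log2 ratio of Txnip to Txn1 counts was 3.44, 3.65 and 3.63 in GFP cells at 11 mM. In ChREBPβ cells it was 3.84, 3.90 and 3.77 in low glucose, then 4.45, 4.28 and 4.49 in high glucose. The transcript of the inhibitor thus moved far more than that of its target, by 14.3-fold in the ratio with ChREBPβ at 2 mM and by 1.79-fold at 11 mM.

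For Txnip over Arrdc4, the log2 ratio was 3.18, 3.22 and 3.31 in GFP cells at 11 mM glucose. With ChREBPβ it was 4.23, 4.26 and 4.19 at 2 mM and 4.44, 4.43 and 4.42 at 11 mM. In ChREBPβ cells, glucose moved this ratio by 0.20, against 3.23 in GFP cells. Each of these differences between groups had an exact two-sided permutation p of 0.1, the smallest that 3 against 3 libraries can give.

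**Figure D3:**
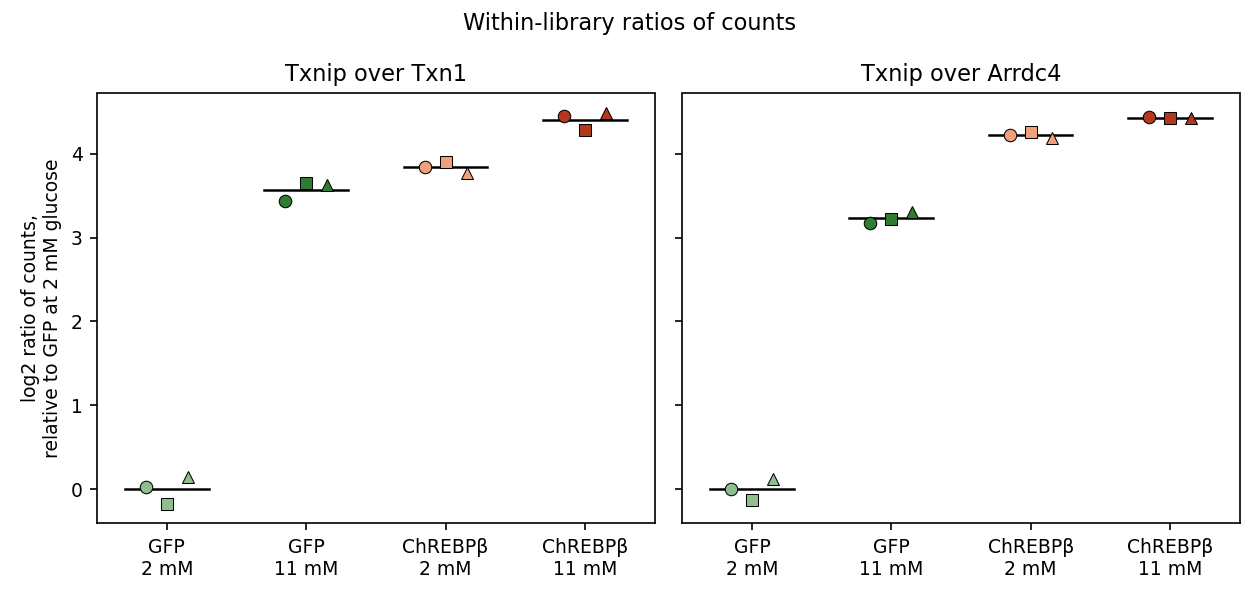
log2 ratio of raw counts of Txnip to Txn1 (left) and of Txnip to Arrdc4 (right) in each library, relative to the mean of the GFP libraries at 2 mM glucose; symbols mark replicates a (circle), b (square) and c (triangle) and bars the group means. The Arrdc4 ratio is nearly level in ChREBPβ cells, at 4.23, 4.26 and 4.19 for 2 mM and 4.44, 4.43 and 4.42 for 11 mM glucose.

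Likeness of pattern was measured over the 12 libraries as the root mean square difference of centred log2 CPM. For Txnip, whose values span 4.80, the 5 nearest genes were Cpne9 (0.42), Nphs1 (0.57), Cntn4 (0.63), Snx31 (0.65) and Upk3a (0.65), and 4 of these 5, all but Snx31, were among the nearest with a prior count of 0.5 in place of 2. Cpne9 rose from 2.73 ± 0.277 CPM in GFP cells at 2 mM glucose to 55.8 ± 1.44 with ChREBPβ (SD, n = 3), whereas the other 4 had means at or below 0.17 CPM in the former group and rest on few reads. For Arrdc4, whose values span 0.64, the 5 nearest were Fgf1 (0.08), Gatm (0.08), Trmt6 (0.08), Slitrk5 (0.08) and Zcchc9 (0.09). Among the members themselves the distance of Txnip from the other 5 was 1.73 to 1.96, and the distances among those 5 were 0.17 to 0.41. No member was among the 5 genes nearest to Txnip or to Arrdc4. Values were centred but not scaled, so this distance follows the size of a change as well as its shape. With a span of 4.80, Txnip is far from any gene that changed little, whatever the shape of that gene's pattern.

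Other arrestins gave a contrast. Of the β-arrestins, which act on G protein coupled receptors, Arrb1 rose with ChREBPβ by 0.83 at 2 mM glucose (edgeR adjusted p = 3.86e-06), and in high glucose by 0.61 (edgeR adjusted p = 7.14e-05). Arrb2 was at 0.14 and 0.00 in the same comparisons and was not called. The visual arrestins Sag and Arr3 were below the filter.

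Of the thioredoxin system, 17 listed genes were tested, Txn1 among them. With ChREBPβ 7 were higher and none lower at 2 mM glucose, with a list median of 0.21 against -0.02 for all genes, and 4 were higher and none lower at 11 mM, with a median of 0.09 against -0.02. Among all tested genes 44.1% and 33.4% were called in these comparisons, and 21.0% and 14.3% were called higher. Srxn1 was among the 4 at 11 mM (0.27). Its call there was lost with the replicate letter as a block (0.26), upper quartile factors (0.23) or library totals (0.18). It was also lost without GFP 11 mM replicate b (0.20) or c (0.25) or ChREBPβ 11 mM replicate b (0.20). Msrb2, a mitochondrial methionine sulfoxide reductase, changed most, by 1.91 at 2 mM glucose (edgeR adjusted p = 5.13e-15), and in high glucose by 1.44 (edgeR adjusted p = 1.66e-13). The peroxiredoxin gene Prdx2 rose by 0.60 and 0.58 (edgeR adjusted p = 2.60e-08 and 5.95e-08), and Msra, another methionine sulfoxide reductase, by 0.60 and 0.39 (edgeR adjusted p = 9.57e-05 and 0.00374). Thioredoxin reductase 1, Txnrd1, which regenerates reduced thioredoxin, rose with glucose in GFP cells by 0.36 (edgeR adjusted p = 7.91e-07), and its values with ChREBPβ were 0.22 at 2 mM and 0.02 at 11 mM, not called. With glucose in GFP cells 5 of the 17 were called higher and none lower, beside 20.2% of all genes called and 10.2% called higher. Without GFP 11 mM replicate a the number was 3, where Prdx6 (0.26) and Srxn1 (0.24, edgeR adjusted p = 0.124) were no longer called. In ChREBPβ cells none of the 17 was called with glucose, beside 3.87% of all genes, and 1 was called without ChREBPβ 2 mM replicate b.

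NEDD4-family ligases are the enzymes that α-arrestins recruit. Of 8 tested genes, 1 was higher and 1 lower with ChREBPβ at either glucose concentration, beside 44.1% of all genes called at 2 mM and 33.4% at 11 mM. With upper quartile factors or library totals the 2 called at 2 mM became 4. Hecw2 was the higher one, by 1.39 at 2 mM glucose (edgeR adjusted p = 6.31e-10), and in high glucose by 0.71 (edgeR adjusted p = 1.68e-06). Nedd4l was the lower one, by -0.55 at 2 mM glucose (edgeR adjusted p = 2.50e-09), and in high glucose by -0.27 (edgeR adjusted p = 3.83e-05), the latter not called with DESeq2 or RLE factors at -0.25, with the stricter filter of at least 10 counts in every library at -0.26, or without GFP 11 mM replicate a or b or ChREBPβ 11 mM replicate c, at -0.26 to -0.25. Itch, the ligase best known for ubiquitinating TXNIP, was at 53.7 ± 3.92 and 49.7 ± 2.46 CPM with GFP and ChREBPβ at 2 mM glucose (SD, n = 3) and was not called in any comparison. With glucose, 1 ligase was higher and 2 were lower in GFP cells, beside 20.2% of all genes called. Of the lower ones Wwp2 (-0.27) stood at the 1.2-fold minimum and was not called without GFP 2 mM replicate b (-0.24) or c (-0.24) or GFP 11 mM replicate a (-0.22), nor with no filter (-0.26). In ChREBPβ cells no ligase was called with glucose, beside 3.87% of all genes, and 1 was called without ChREBPβ 11 mM replicate c.

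Binding partners and cargo of the α-arrestins made up a list of 12 tested genes, of which 4 were higher and 2 lower with ChREBPβ at 2 mM, and 5 higher and 1 lower at 11 mM. That is 6 of 12 in both, beside 44.1% and 33.4% of all genes. Slc2a4, the gene of the glucose transporter GLUT4 that TXNIP helps to internalise, rose from 9.35 ± 0.245 CPM with GFP to 73.3 ± 2.02 with ChREBPβ at 2 mM glucose (SD, n = 3, log2 2.97, edgeR adjusted p = 2.57e-19) and by 1.65 at 11 mM (edgeR adjusted p = 3.37e-16). Slc2a2, the gene of the β-cell transporter GLUT2, rose by 0.50 and 0.46 (edgeR adjusted p = 1.67e-09 and 6.47e-09). Map3k5, the gene of the stress kinase ASK1 that TXNIP frees from thioredoxin, rose by 0.58 (edgeR adjusted p = 1.16e-07) and 0.31 (edgeR adjusted p = 2.47e-04), and Kpna2, of the importin that carries TXNIP, by 0.65 and 0.36 (edgeR adjusted p = 1.70e-10 and 9.05e-07). The value for Map3k5 at 11 mM was 0.22, not called, with library totals alone, a scaling that put the median of all genes at -0.10. Notch1 fell, by -1.27 and -0.97 (edgeR adjusted p = 2.69e-09 and 1.27e-07). The other gene called lower at 2 mM was Nlrp3, of the inflammasome that TXNIP binds, at -0.60 (edgeR adjusted p = 0.0479). It was not called with RLE factors (-0.59, edgeR adjusted p = 0.0503) or with the replicate letter as a block (adjusted p = 0.056), nor without GFP 2 mM replicate a or b, GFP 11 mM replicate a, or any single ChREBPβ library, at -0.66 to -0.42 (edgeR adjusted p up to 0.228), which leaves 1 lower.

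Other targets of ChREBP set a scale for Txnip. At 2 mM glucose, 12 of 15 tested targets rose with ChREBPβ and 2 fell, with a list median of 1.69 against -0.02 for all genes, of which 44.1% were called. Among those that rose was Bhlhe40 (2.87, edgeR adjusted p = 2.54e-19), and only G6pc had a fitted value above the 4.12 of Txnip. G6pc had 0 counts in all 3 GFP libraries at 2 mM and 18, 54 and 50 with ChREBPβ, which is at least 8.52-fold higher against a floor of 3 counts per library, and the list median is the same with this bound. At 11 mM again 12 rose and 2 fell, with a median of 1.23, beside 33.4% of all genes called, and 11 of the 15 had a larger log2 value than the 0.93 of Txnip. The lower ones at both concentrations were Khk (-0.97 and -0.71, edgeR adjusted p = 2.77e-05 and 0.0011) and Pnpla3 (-0.67 and -0.71, edgeR adjusted p = 2.71e-06 and 9.92e-07).

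The response to glucose among these targets was 8 higher and 1 lower in GFP cells, beside 20.2% of all genes called. In ChREBPβ cells, where calls over all genes also fell to 3.87%, it was 1 higher and none lower, and Gpd1 was the one called (0.40, edgeR adjusted p = 9.47e-05), and 3 were called without ChREBPβ 11 mM replicate a. For 7 of the 15 the interaction was called, in each case negative, beside 6.31% of all genes, most of them negative too (696 of 925), with the lowest called value at -1.27 for Bhlhe40 (edgeR adjusted p = 2.93e-10). The -3.20 of Txnip lay below each of these 7, while the interaction of G6pc is not determined, with 0 reads in a group. Of the ChREBP partners, Mlx and Mlxip were not called in either ChREBPβ comparison (0.06 and 0.01 at 2 mM, 0.08 and -0.01 at 11 mM).

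**Figure D4:**
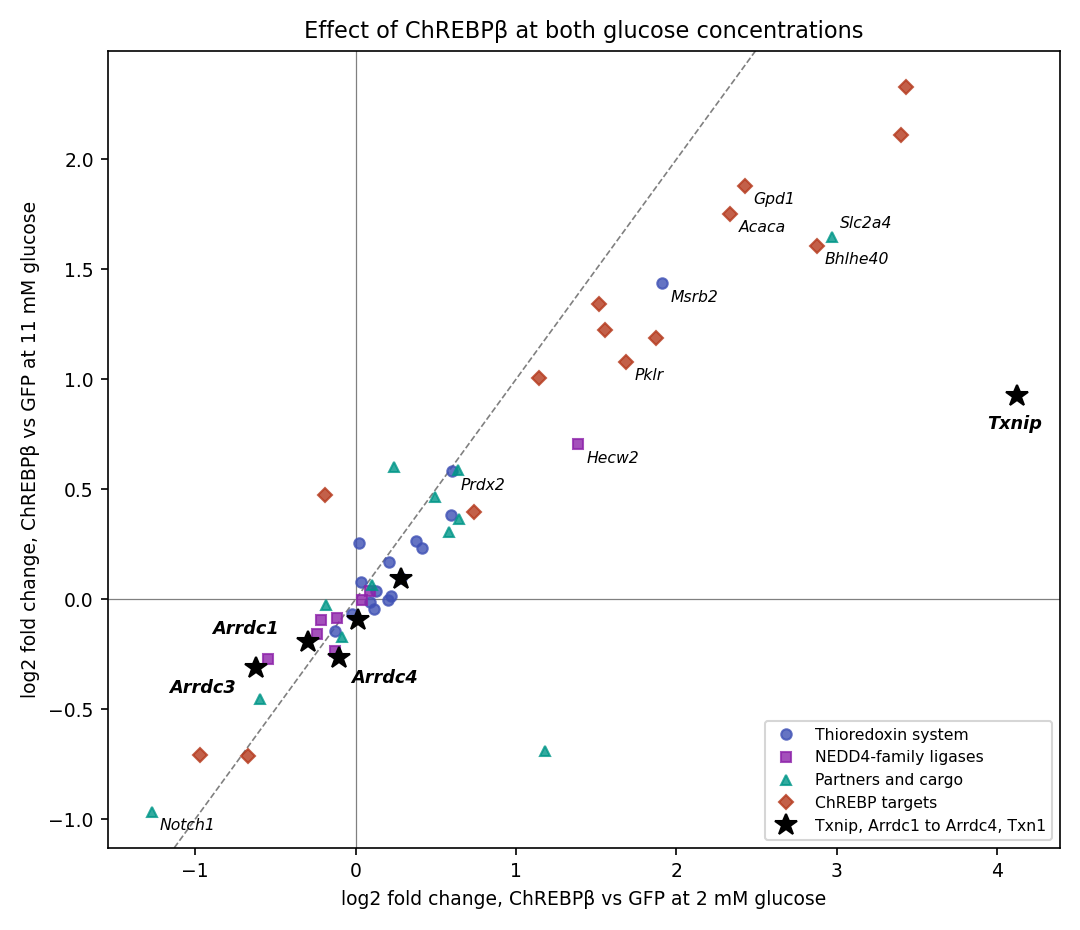
Effect of ChREBPβ as log2 fold change at 2 mM (horizontal axis) and 11 mM glucose (vertical axis) for the 6 members (stars) and the tested genes of the lists, G6pc left out because it had no reads in the GFP libraries at 2 mM; the dashed line marks equal effects. Txnip lies farthest below that line, at 4.12 and 0.93, and Arrdc1, Arrdc3 and Arrdc4 lie on the side of lower expression.

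Markers of other cells were looked up as well. Of 6 exocrine and ductal markers, 5 were in the table and summed to 5.63 ± 0.835 CPM with GFP and 13.0 ± 0.420 with ChREBPβ at 2 mM glucose (SD, n = 3), and this difference came from Sox9, which had the most reads of them with ChREBPβ and rose by 3.26 (edgeR adjusted p = 6.80e-13). Ctrb1, with most reads of this list in GFP cells, was level at 4.79 and 4.81 CPM (log2 0.01, edgeR adjusted p = 0.958). Of 8 markers of mesenchyme, endothelium and immune cells, 7 were in the table and summed to 1.56 ± 0.0898 and 1.54 ± 0.436 CPM, with most reads from Kdr and from Cd68. At 2 mM Cd68 was called higher, by 1.04 (edgeR adjusted p = 0.0243), a call lost without GFP 2 mM replicate b or c or ChREBPβ 2 mM replicate a (0.76 to 0.97, edgeR adjusted p = 0.0721 to 0.107). Kdr was lower by -0.81 (edgeR adjusted p = 0.0196), a call lost without GFP 2 mM replicate c (-0.71) or ChREBPβ 2 mM replicate b (-0.69), and lower in high glucose by -0.98 (edgeR adjusted p = 0.00275). The 7 markers of other islet cells summed to 1626 ± 39.7 and 435.4 ± 6.03 CPM, nearly all of these reads from Gcg, while Sst had 5 counts in all libraries together. The 7 β-cell markers summed to 12697 ± 963 and 5232 ± 91.8 CPM, with most reads from Ins1. Their part in the changes of Txnip and the α-arrestins was not tested.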

How the data were processed

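The authors amplified the RNA before sequencing and deposited counts per gene. The submitters' notes name the rat build Rnor_6.0 and edgeR; the aligner and annotation are not given in the sources used here. The 12 count columns were used, and the deposited group means were not. The number of unmatched columns of single samples was 0. An entry without a name (0.0043% to 0.00601% of a library's counts) was left out.

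Genes were filtered by filterByExpr, scaled by TMM and fitted by edgeR 4.0.16 (R 4.3.3) with glmQLFit and glmQLFTest in 1 model of 4 groups without covariates, giving 7 contrasts. The steps were tested on simulated data. Levels use no prior count; likeness uses a prior count of 2. Alternatives were DESeq2 1.42.0, other scalings and filters, the replicate letter as a block, only the groups compared, no minimum fold and leaving out each library. Gene lists were matched through RefSeq synonyms; in each list up to 4 called genes with the largest changes were named first, and others after their values were seen. The members and lists were chosen with earlier results of these data known. Transcript lengths were not used here, so levels are not compared between genes; marker sums add CPM and follow reads. Counts of replicates differed by more than sampling noise (chi-square per degree of freedom 3.13 to 17.5).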

Additional observations from a re-analysis of the deposited data

Results flagged for a closer look

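On the log2 scale, the effect of ChREBPβ depended on glucose for 1 of the 6 members and for 12 of 56 other tested genes of the related lists. These calls come from edgeR's quasi-likelihood test of the interaction with Benjamini-Hochberg adjustment, beside 6.31% of all 14669 tested genes. For the genes of the lists, the dependence on glucose was not tested in CPM. For Txnip the interaction was -3.20 on the log2 scale, with a larger effect at 2 mM. It was called under every alternative that was run.

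Among ChREBP targets the interactions called were those of Bhlhe40 (-1.27), Rgs16 (-0.69), Pklr (-0.61), Acaca (-0.58), Gpd1 (-0.55), Klf10 (-0.34) and Tkt (-0.33). Without ChREBPβ 2 mM replicate b or GFP 11 mM replicate c, Tkt was at -0.32 and -0.31 and no longer called.

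Among partners and cargo they were those of the GLUT4 gene Slc2a4 (-1.32) and of Kpna2 (-0.28), and in the thioredoxin system that of Msrb2 (-0.47). Kpna2 was at -0.26 and not called with upper quartile factors or without GFP 11 mM replicate c, and at -0.23 without GFP 2 mM replicate c.

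Among NEDD4-family ligases the interaction was negative for Hecw2 (-0.68) and positive for Nedd4l (0.28), whose fall with ChREBPβ was smaller at 11 mM. Nedd4l was no longer called without GFP 11 mM replicate c (0.25), ChREBPβ 11 mM replicate a (0.25) or GFP 2 mM replicate b (0.26).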

How the results depend on the processing

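Of 876 values of the members under the alternatives, 819 kept direction and call, 28 were no longer called, 16 were newly called and 13 changed sign, and Txnip stayed called in all 7 tests. All sign changes were in values not called. Each range below covers only the fits that leave out 1 library, so values under other scalings, filters or tools can lie outside it. With ChREBPβ at 2 mM glucose, Arrdc2 was at -0.0443 with upper quartile factors, -0.0848 with library totals, and -0.0552 to 0.10 on leaving out single libraries, Txn1 was no longer called at 0.22 and 0.18 with those scalings and ranged from 0.25 to 0.32, and Arrdc1 ranged from -0.33 to -0.24. At 11 mM, Arrdc3 was no longer called with DESeq2 (-0.29), RLE factors (-0.30) or the stricter filter (-0.31) and ranged from -0.38 to -0.23. Arrdc4 was no longer called there with DESeq2 or RLE factors (-0.25), the stricter filter or only the 2 groups compared (-0.26), and ranged from -0.28 to -0.26, Arrdc2 from -0.22 to 0.0496, and Arrdc1 was called with library totals (-0.28). With glucose in GFP cells Arrdc2 ranged from -0.0791 to 0.19. In ChREBPβ cells Arrdc3 ranged from 0.39 to 0.63, Txn1 from -0.0798 to 0.00414 and Arrdc1 from -0.00978 to 0.0837. For ChREBPβ at 11 mM against GFP at 2 mM, Arrdc1 was no longer called with DESeq2, RLE factors or the stricter filter (-0.26) and ranged from -0.31 to -0.21, Txn1 was called with DESeq2, RLE factors and the stricter filter (0.27) and with only the 2 groups (0.26) and ranged from 0.20 to 0.29, and Arrdc2 from -0.10 to 0.0541. For ChREBPβ at 2 mM against GFP at 11 mM, Arrdc1 was called with library totals (-0.29), and Arrdc2 ranged from -0.18 to 0.0944. The interaction of Arrdc2 ranged from -0.24 to 0.0344. With no minimum fold the calls gained were Arrdc4 (-0.10) at 2 mM, Arrdc1 (-0.20) at 11 mM, Txn1 (0.17) with glucose in GFP cells, Txn1 (0.26) and Arrdc4 (0.24) for both changes together and Arrdc1 (-0.22) for ChREBPβ at 2 mM against GFP at 11 mM, and the genes called went from 2963 to 5030 with glucose in GFP cells, from 567 to 1100 in ChREBPβ cells and from 3955 to 6109 in the last comparison. Library totals moved the share of called genes that were higher from 47.5% to 33.2% (ChREBPβ at 2 mM), from 42.9% to 29.3% (at 11 mM), from 46.9% to 33.4% (both changes) and from 45.2% to 33.0% (ChREBPβ at 2 mM against GFP at 11 mM), and the median of all genes to -0.12, -0.10 and -0.13 in the first 3, and upper quartile factors moved that share for the interaction from 24.8% to 35.3%. The letters of the replicates did not pair the libraries (correlations -0.114 to 0.0644), and with the letter as a block 6449 genes were called at 2 mM and no call of a member changed. The genes of the lists and markers made 195 calls, 104 of 4069 alternative values for them were no longer called and none changed sign, and these alternatives were added after seeing the data.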
